A study of Mus musculus with 3 samples.

Results

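The cells described here are pancreatic Csf1r cells that carried transcripts of Ccl5, Cxcl9 or Nos2, a set labelled inflammatory macrophages. A cell was a barcode with at least 1000 unique molecular identifiers (UMIs, each standing for 1 captured RNA molecule) and at most 30% of them from mitochondrial genes. A cell was a member when it held at least 1 UMI of Csf1r and a sum of at least 5 UMIs over Ccl5, Cxcl9 and Nos2. It also had to hold no UMI of Arg1, of the dendritic cell genes Xcr1, Clec9a and Fscn1, of the B cell gene Cd79a, of the T cell genes Cd3e and Cd3d, or of the NK cell gene Ncr1. Of 14302 cells, 628 met the rule: 17 of 5249 from PBS mice, 36 of 4879 from mice 3 days after WGP and 575 of 4174 from mice 7 days after WGP. The members were chosen on these measured values, so the levels of the genes in the rule are a description and carry no test.

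The study measured transcripts in single live CD45+ cells sorted from the pancreas of mice. WGP is particulate β-glucan from yeast cell walls, and the mice received either PBS or WGP by intraperitoneal injection, 3 days or 7 days before the tissue was taken. The methods describe wild-type C57BL/6 J mice of both sexes aged 6 to 8 weeks, and all groups shared that background. Each group was 1 library, the labels do not give the number of mice in it, and no difference between groups below has a replicate check.

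Csf1r encodes the receptor through which monocytes and macrophages receive their survival signal. Ccl5 and Cxcl9 are chemokines that draw T cells and NK cells, and Cxcl9 is a classical target of interferon-γ. Nos2 makes nitric oxide from arginine in activated mouse macrophages, while Arg1, which the rule removes, uses the same amino acid in another way. Ly6i, a surface protein of the Ly6 family, and Ptgs2, the inducible cyclooxygenase of prostaglandin synthesis, also mark inflammatory myeloid cells and were not part of the rule.

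On the mouse build GRCm38, Ccl5 lies at chr11:83525778-83530518 on the minus strand and Nos2 at chr11:78920787-78960254 on the plus strand. Cxcl9 lies at chr5:92321347-92328079 on the minus strand, Ly6i at chr15:74979534-74983430 on the minus strand and Ptgs2 at chr1:150100031-150108227 on the plus strand. All are protein-coding genes. The 250 bases before the start of Cxcl9, a gene of the rule, and of 3 chosen genes that were higher in members are printed here. They illustrate some of the letters that interferon-responsive and κB factors are known to read, and they say nothing of the other higher genes. They are RefSeq sequences of GRCm38.p6, written in the direction of the gene, at chr5:92328080-92328329 for Cxcl9, chr5:92348890-92349139 for Cxcl10 (both minus strand), chr3:142620413-142620662 for Gbp2 and chr3:142496684-142496933 for Gbp5 (both plus strand). Capitals mark matches to GAS (TTCNNNGAA), ISRE (GAAANNGAA) or κB (GGGANTTTC) on either strand.
Cxcl9: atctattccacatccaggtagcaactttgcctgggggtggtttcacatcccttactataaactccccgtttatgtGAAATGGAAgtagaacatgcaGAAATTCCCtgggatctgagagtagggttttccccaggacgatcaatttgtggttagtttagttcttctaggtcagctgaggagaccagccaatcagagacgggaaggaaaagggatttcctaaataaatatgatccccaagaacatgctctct
Cxcl10: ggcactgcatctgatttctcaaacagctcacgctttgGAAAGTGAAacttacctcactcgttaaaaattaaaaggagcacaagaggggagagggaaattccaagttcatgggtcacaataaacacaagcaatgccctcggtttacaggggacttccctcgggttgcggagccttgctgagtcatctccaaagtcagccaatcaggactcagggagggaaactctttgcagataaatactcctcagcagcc
Gbp2: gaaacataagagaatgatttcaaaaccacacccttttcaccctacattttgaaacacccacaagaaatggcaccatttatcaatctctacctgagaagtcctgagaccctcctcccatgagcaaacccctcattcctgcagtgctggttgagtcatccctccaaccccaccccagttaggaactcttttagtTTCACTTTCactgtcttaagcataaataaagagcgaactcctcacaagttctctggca
Gbp5: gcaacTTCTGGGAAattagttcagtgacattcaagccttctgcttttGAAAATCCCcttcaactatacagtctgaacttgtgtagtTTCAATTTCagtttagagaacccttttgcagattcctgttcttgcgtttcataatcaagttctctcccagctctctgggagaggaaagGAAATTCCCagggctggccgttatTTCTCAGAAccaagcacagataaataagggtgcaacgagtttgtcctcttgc
Cxcl9 held 1 ISRE match, which began 175 bases before the start, and 1 κB match at 154 bases. Cxcl10 held an ISRE match at 213 bases and Gbp2 held one at 58 bases. Gbp5 held GAS matches at 245 and 52 bases, an ISRE match at 164 bases and κB matches at 203 and 76 bases, while the window of Ptgs2 held none. Of 32851 promoter windows of the same length, 7.02% held a GAS match, 7.13% an ISRE match and 0.941% a κB match. A match describes these exact letters and is no evidence of binding. Other forms of such sites were not searched, so unmarked letters, also in Cxcl9 and Cxcl10, may hold further forms. The shares of windows likewise hold for the exact letters only.

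The libraries held 48219246 to 56849043 UMIs, and members had a median depth of 10906 UMIs after PBS, 14412 UMIs 3 days and 11476 UMIs 7 days after WGP. Cells that met the same exclusions with a sum under 5 and no Arg1, called other Csf1r cells, had medians of 10092, 10689.5 and 9143 UMIs. Cells with Xist and cells with Y-linked transcripts came from mice of different sex and were unevenly spread over the libraries. Among Csf1r cells without Arg1, 879 PBS cells held only Xist and 12 only Y-linked UMIs, against 61 and 296 cells at 3 days and 441 and 469 cells at 7 days, so values over all cells of a library mix the time after WGP with the sex of the mice, and values within Xist or Y cells are given beside them where they could be had. Libraries shared 1 to 9 cell barcodes per pair, and 0 of them were members. RNA free in the droplets, read from barcodes of at most 100 UMIs, held 1768 CPM of Ccl5 (UMIs per 1000000 UMIs), 558 CPM of Cxcl9 and 33.6 CPM of Nos2 at 7 days, against 328, 13.4 and 0 CPM in PBS.

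Members were far more frequent in the 7-day library than in the others. They made up 0.324% of PBS cells (exact binomial 95% interval 0.189 to 0.518), 0.738% of cells at 3 days (0.517 to 1.02) and 13.8% of cells at 7 days (12.7 to 14.9). Of Csf1r cells without Arg1 and within the same exclusions, they made up 1.81% of 942 cells (1.06 to 2.87), 6.95% of 518 cells (4.92 to 9.49) and 49.1% of 1172 cells (46.2 to 52.0). The intervals of the 3 libraries did not overlap for the second share, whereas for the first those of PBS and of 3 days touched (0.518 and 0.517). These intervals, and all below, cover counting error only. When the sum was taken per 10000 UMIs of the cell the shares were 0.305%, 0.676% and 13.8%, and with each cell thinned to 3000 UMIs and a sum of at least 2 they were 0.445%, 0.952% and 13.6%.

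**Figure D1:**
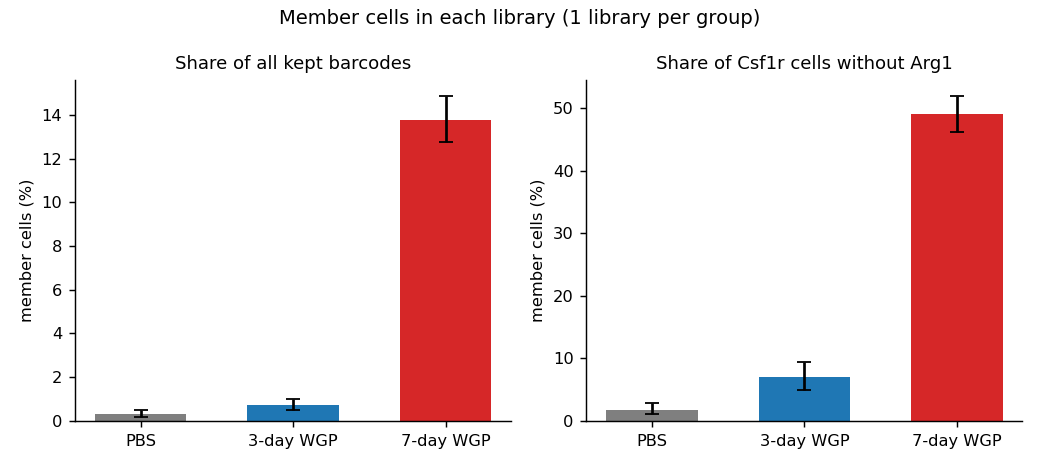
Share of member cells (%) in the PBS, 3-day WGP and 7-day WGP libraries, of all cells on the left and of Csf1r cells without Arg1 on the right; bars are the share in 1 library and lines its exact binomial 95% interval. The 7-day bars stand at 13.8% and 49.1%, above 0.738% and 6.95% at 3 days and 0.324% and 1.81% in PBS.

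The libraries mixed cells of both sexes, and the shares were taken within each. At 7 days members made up 14.7% of 1208 Xist cells (12.8 to 16.9) and 14.6% of 1865 Y cells (13.01 to 16.3), with intervals that overlapped. Of Csf1r cells without Arg1 they made up 40.4% of 441 Xist cells (35.8 to 45.1) and 58% of 469 Y cells (53.4 to 62.5), with intervals that did not. Of the Xist cells among Csf1r cells without Arg1, 1.82% of 879 (1.04 to 2.94) were members after PBS and 6.56% of 61 (1.81 to 15.9) at 3 days. Of the Y cells, 0 of 12 were members after PBS, which allows a share of up to 25%, and 7.77% of 296 (4.99 to 11.4) at 3 days. The share at 7 days was thus above that at 3 days in Xist and in Y cells, with intervals that did not overlap.

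A sum of 5 UMIs was also reached outside the Csf1r cells described here. Of B cells (Cd79a of at least 3 UMIs and no Csf1r), a cell type taken as background, 7.09% reached it after PBS, 12.03% at 3 days and 5.63% at 7 days. The B cell shares were above those of members among Csf1r cells without Arg1 after PBS (1.81%) and at 3 days (6.95%). At 7 days they were below (49.1%). The B cells' median depths were 5343.5, 9375 and 5906 UMIs. In thinned cells at 7 days 8.29% of B cells held a UMI of Ccl5, 1.29% one of Cxcl9 and 0.184% one of Nos2, against 72.7%, 71.4% and 8.17% of members (11.9%, 3.48% and 0.828% against 84%, 82.3% and 15.7% before thinning). The members' shares follow from the rule and are given as a description, and of the background shares that of Ccl5 was the highest.

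The genes of the rule were unevenly shared among the members. At 7 days 483 of 575 members held Ccl5, 473 held Cxcl9 and 90 held Nos2. Ccl5 alone was found in 87 members, Cxcl9 alone in 89, Nos2 alone in 1, and all 3 genes in 73. The tenth of members with the most UMIs of a gene held 51.3% of its Ccl5 UMIs, 44.3% of Cxcl9 and 93% of Nos2. In PBS 10 of 17 members held Ccl5, 11 held Cxcl9 and 0 held Nos2, which allows a share of up to 17.6% (3 counts). At 3 days 27 of 36 members held Ccl5, 17 held Cxcl9 and 3 held Nos2. Most members of 7 days thus held Ccl5 and Cxcl9, while Nos2 marked a minority.

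The median sum of the 3 genes per member was 12 UMIs after PBS, 16 at 3 days and 38 at 7 days, and the highest sum was 866. At 7 days 16 members stood at a sum of exactly 5, just inside the rule, and 24 Csf1r cells stood at exactly 4, just outside it. Of the 597 other Csf1r cells 399 had a sum of 0.

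The summed levels of the rule genes, given as a description, were as follows. Ccl5 stood at 449 CPM in PBS members, 951 CPM in 3-day members and 2711 CPM in 7-day members, and Nos2 at 0, 47.2 and 67.2 CPM. Cxcl9 stood at 2527, 455 and 2463 CPM, so the 3-day members held the least. The PBS level rested on few cells, since the tenth of the 17 members with the most Cxcl9 held 61.9% of its UMIs and the median was 8 UMIs.

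Ly6i was higher in members than in other Csf1r cells of every library. It stood at 126 CPM in PBS members (exact Poisson 95% interval 82.1 to 184), 182 CPM in 3-day members (149 to 220) and 1125 CPM in 7-day members (1100 to 1150). In the other Csf1r cells it stood at 17.5, 51.2 and 318 CPM. The 7-day library was the highest for both kinds of cell, and at 7 days the members exceeded the others by 1.82 on the log2 scale (1.75 to 1.90). After thinning 79.4% of 7-day members held a UMI of Ly6i, against 36.0% of other Csf1r cells and 1.47% of B cells (92.5%, 49.9% and 4.47% before thinning). Ly6i shares much of its sequence with other Ly6 genes, so reads may have been split among them.

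Ptgs2 followed the members at 7 days and not before. It had no UMI in PBS members, which allows up to 14.5 CPM, and stood at 219 CPM (182 to 260) in 3-day and 460 CPM (444 to 476) in 7-day members. In other Csf1r cells it stood at 15.5 CPM (13.1 to 18.2), 216 CPM (203 to 229) and 183 CPM (172 to 195). At 3 days the intervals of members and others overlapped, and at 7 days the difference was 1.32 on the log2 scale (1.22 to 1.43). With each cell weighted equally the 7-day difference on log2(CPM + 10) dropped from 1.28 to 0.54. After thinning 44.4% of 7-day members, 16.9% of other Csf1r cells and 0.368% of B cells held a UMI of it (59.1%, 27.3% and 0.662% before thinning).

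Members held identity genes of monocytes and macrophages mostly within 2-fold of the other Csf1r cells. Both kinds of cell were chosen by Csf1r with the same exclusions, so this likeness does not establish identity. Of 20 identity genes 1 (Csf1r) was in the rule, all the other 19 were measured, and at 7 days 0 were at least 2-fold higher and 1, Cx3cr1, was at least 2-fold lower in members than in other Csf1r cells, with a median difference of 0.09 on log2(CPM + 10). Lyz2, the lysozyme of macrophages, stood at 25421 CPM against 22833 CPM. Adgre1, which encodes F4/80, stood at 167 against 150 CPM, and Mertk, a receptor for dying cells, at 32.4 against 19.4 CPM. Cx3cr1, the fractalkine receptor, stood at 47.6 against 113 CPM.

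Monocyte genes were present in the members as well. Ly6c2, the Ly6C antigen of inflammatory monocytes, stood at 1144 CPM in members and 1152 CPM in other Csf1r cells at 7 days. Ccr2, the receptor that brings monocytes out of the marrow, stood at 728 CPM (707 to 748) against 1192 CPM (1163 to 1222). The rule thus does not separate macrophages from monocytes, and the set is called Ccl5/Cxcl9/Nos2 cells or members below. Of 14 genes of Ly6C-high monocytes 0 were at least 2-fold higher and 3 at least 2-fold lower (median -0.42), with Chil3, a chitinase-like protein, at 121 against 365 CPM and Vcan, versican, at 32.1 against 104 CPM.

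Marker genes of other cells were mostly low or shared with the comparison cells at 7 days. At 7 days the 6 migratory dendritic cell markers were an exception, with sums of 200 CPM in members and 105 CPM in other Csf1r cells. Tmem123 held most of both sums (163 and 79.9 CPM). The 8 conventional dendritic cell markers summed to 95.7 against 248 CPM and the 6 plasmacytoid ones to 384 against 471 CPM. Of the latter Ly6d was higher in members, at 15.9 against 2.2 CPM. At 3 days the 6 endothelial markers summed to 75.2 CPM in members and 8.53 CPM in other Csf1r cells. Klrd1, an NK marker, stood at 73.5 against 17.8 CPM there. The neutrophil, fibroblast and erythroid sums were lower in 3-day members than in other cells. At 7 days the 8 T cell markers summed to 11.8 CPM in members, the 6 B cell markers to 11.2 CPM and the 8 NK markers to 24.1 CPM, and all 6 mast cell and basophil markers were at 0. The 8 neutrophil markers summed to 315 CPM in members and 1194 CPM in other Csf1r cells, and the 5 erythroid markers to 1136 and 3662 CPM. A few cells carried these: 5 members held 96.9% of the members' Hbb-bs UMIs and 93.2% of their S100a9 UMIs. The part of such cells in the differences of those genes is given by the values without them: the difference of Hba-a1, a haemoglobin gene, went from -2.20 to 0.16, and that of S100a8, a neutrophil calprotectin subunit, from -2.04 to 0.60, when barcodes with 3 or more erythroid, neutrophil or fibroblast UMIs were left out, a choice made after the data were seen.

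In the 7-day library some inflammatory, acute phase and interferon-γ genes were higher in members than in other Csf1r cells. Many resident macrophage genes were lower in members. Cxcl9, a target of interferon-γ, was in the rule, so higher genes of that kind are not independent of how the members were chosen. Of 7489 genes with at least 10 CPM in either kind of cell, rule genes left out, 90 (1.2%) were at least 2-fold higher in members and 104 (1.39%) at least 2-fold lower on log2(CPM + 10). The median of all genes was -0.07 and became 0.05 with TMM factors, under which the split was 119 higher and 85 lower. In both directions these are differences between cells of 1 library, with no test.

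Among genes at 50 CPM or more, the 10 highest by this measure were Saa3, Procr, AA467197, Sdc4, Lyz1, Cfb, Cxcl10, Serpina3g, Spp1 and Acsl1. Saa3, an acute phase apolipoprotein, stood at 126 CPM in PBS members, 9440 CPM in 3-day members and 2137 CPM in 7-day members, against 25.8, 2499 and 277 CPM in the other cells. Thus members exceeded others in each library, while both were highest at 3 days. Procr, the endothelial protein C receptor, stood at 29 CPM (10.6 to 63.1), 24.5 CPM (13.4 to 41.1) and 95.3 CPM (88.1 to 103), against 1.54, 2.91 and 7.38 CPM. Its interval in members lay above that in other cells of every library. In thinned cells at 7 days 14.4% of members, 1.33% of other Csf1r cells and 0% of B cells held a Procr UMI (30.8%, 3.35% and 0.331% before thinning).

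Spp1 and Lyz1 need a reservation. Spp1, osteopontin, stood at 64.7 against 9.41 CPM at 7 days, but 5 members held 87.5% of the members' UMIs. Lyz1, a lysozyme close in sequence to Lyz2, stood at 616 against 142 CPM, with 35.8% of the members' UMIs in 5 cells, and at 3 days it was lower in members (59.5 CPM) than in others (244 CPM).

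**Figure D2:**
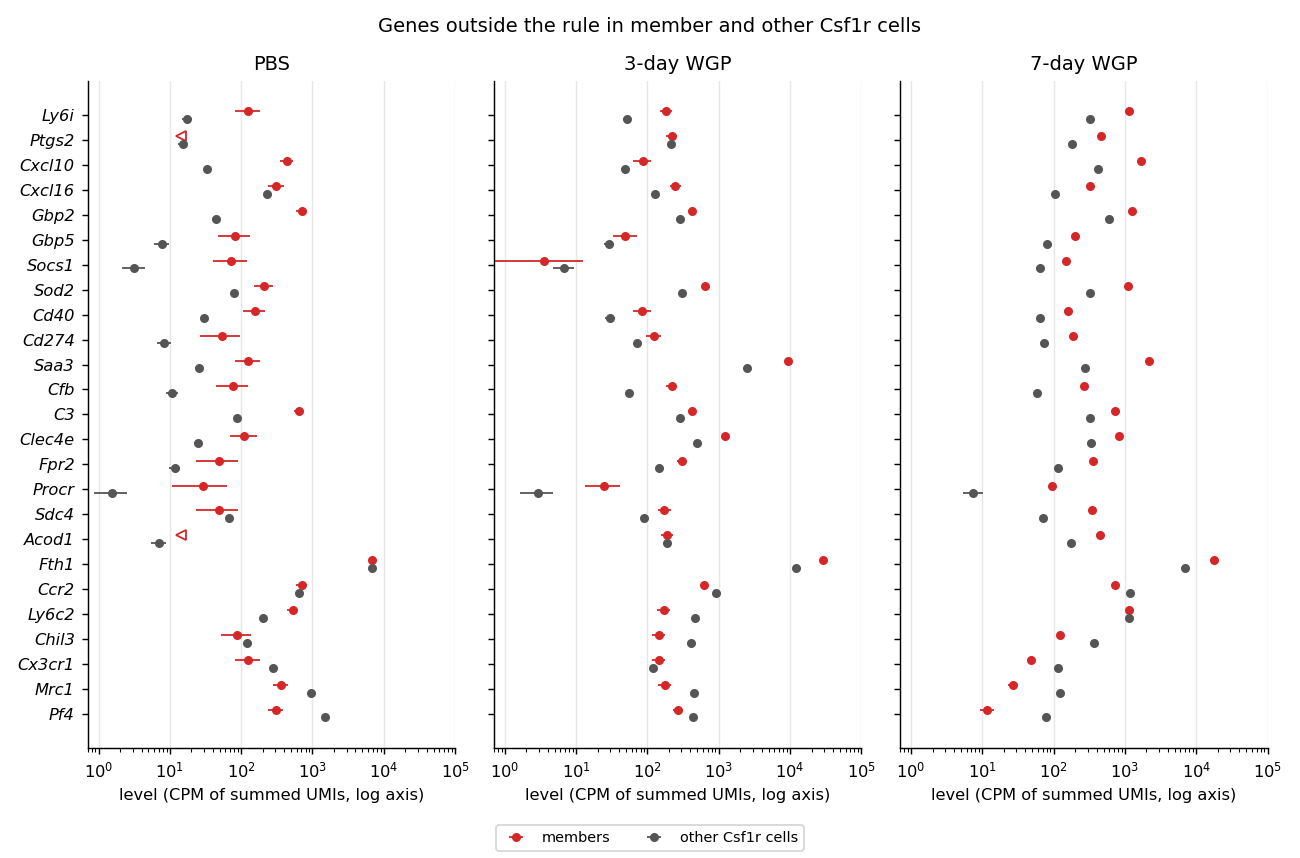
Levels of 25 genes that the rule did not use, as CPM of summed UMIs on a log axis, in members (red) and other Csf1r cells (grey) of each library; lines are exact Poisson 95% intervals and open triangles mark the level that 3 UMIs would give where no UMI was found. At 7 days Ly6i (1125 against 318 CPM) and Procr (95.3 against 7.38 CPM) lay to the right in members, and Mrc1 (26.9 against 123 CPM) and Pf4 (11.8 against 77.5 CPM) to the left.

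Interferon-γ target genes were higher in part. Of 17 interferon-γ induced GTPases, which act on vacuoles of intracellular microbes, 2 (Gbp2 and Gbp5) were at least 2-fold higher in 7-day members and 0 were lower, with a median of 0.46. Gbp2 stood at 705 CPM (596 to 830) in PBS members, 416 CPM (365 to 473) in 3-day members and 1246 CPM (1219 to 1272) in 7-day members, against 44.5, 288 and 589 CPM in others. Gbp5 stood at 82.1, 49 and 200 CPM against 7.69, 28.7 and 81.8 CPM. For both genes the 7-day members stood highest, and the intervals of members lay above those of others in every library except for Gbp5 at 3 days (32.5 to 70.8 against 24.3 to 33.7 CPM). Both belong to a gene family that includes some close copies, and whether reads were split among them was not tested. Of 17 genes of interferon-γ signalling 2 were higher, Socs1 and Batf2 (median 0.14). Socs1, a feedback inhibitor of cytokine receptors, stood at 148 CPM against 63.3 CPM.

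Type I interferon genes were mostly within 2-fold at 7 days. Of 21 such genes 1, Ifi205, was at least 2-fold higher and 0 were lower, and the median of -0.11 turned to a value above 0 with TMM factors. Isg15, a ubiquitin-like antiviral protein, stood at 309 against 220 CPM at 7 days, 136 against 116 CPM at 3 days and 715 against 83 CPM after PBS, where the 17 members held 148 of its UMIs. All 11 measured genes of MHC class II presentation (median 0.25) and all 19 of MHC class I presentation (median 0.30) stayed within 2-fold. H2-Ab1, a class II chain, stood at 7003 CPM in members and 4940 CPM in others.

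Chemokine genes went both ways. Of 15 chemokines outside the rule 2 were higher (Cxcl10 and Cxcl16) and 2 lower (median -0.38). Cxcl10, which binds the same receptor as Cxcl9, stood at 435 CPM (350 to 535) in PBS members, 85.7 CPM (63.4 to 113) in 3-day members and 1680 CPM (1649 to 1711) in 7-day members, against 33.5, 48.8 and 423 CPM in others. Members lay above others in each library, by 1.99 on the log2 scale at 7 days. Ccl8, a monocyte chemokine of resident macrophages, stood at 41.8 against 101 CPM at 7 days, with 85.9% of the members' UMIs in 5 cells. Of 10 chemokine and peptide receptors Ccrl2, Fpr1 and Fpr2 were higher, and Fpr2, a formyl peptide receptor, stood at 354 against 116 CPM.

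NF-κB targets held the largest group of higher genes together with C-type lectins and the Arg1 and lipid list. Of 20 NF-κB targets and feedback genes 5 were higher (Tnfaip2, Cd40, Sod2, Bcl2a1b and Bcl2a1d) and 0 lower, with a median of 0.75. Sod2, the mitochondrial superoxide dismutase, stood at 208, 647 and 1105 CPM in members of PBS, 3-day and 7-day WGP, against 78.5, 303 and 321 CPM in others. Cd40, a costimulatory receptor, stood at 156 against 64 CPM at 7 days. Of 18 inflammatory cytokines and inflammasome genes 1, Il1a, was higher (median 0.21), and Tnf stood at 80.6 against 44.7 CPM.

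Of 16 C-type lectins and genes of glucan sensing 5 were higher: Clec4e, Clec4d, Clec4n, Malt1 and Clec5a (median 0.22). Clec4e, the receptor Mincle, stood at 111, 1236 and 825 CPM in members and at 24.6, 501 and 336 CPM in others, so members were above others in each library. Clec4n, the receptor Dectin-2, stood at 275 against 111 CPM at 7 days. Of 14 complement and acute phase genes C3, Cfb and Saa3 were higher (median 0.03). Cfb, factor B of the alternative pathway, stood at 263 against 58.3 CPM, and C3 at 729 against 324 CPM.

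Of 10 genes of arginine, itaconate and tryptophan metabolism Acod1 and Slc7a2 were higher (median 0.39). Acod1, which makes itaconate, had no UMI in PBS members and stood at 187 CPM in 3-day and 449 CPM in 7-day members, against 7.08, 191 and 173 CPM in others. Its levels in both kinds of cell were thus close at 3 days, and members stood higher at 7 days. Of 11 prostaglandin and leukotriene genes Ptges and Pla2g7 were higher and 1 lower (median -0.28). Of 17 NADPH oxidase and antioxidant genes 1, the peroxiredoxin Prdx5, was higher (3788 against 1747 CPM, list median 0.39). Of 20 glycolysis and hypoxia genes 1, Vegfa, was at least 2-fold higher, and the differences of all 20 lay between 0.13 and 1.02 (median 0.56). Fth1, the ferritin heavy chain that stores iron, stood at 17472 against 6987 CPM and was the 1 higher gene of 10 in the iron and heme list, in which 2 were lower (median 0.17).

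Costimulatory and checkpoint genes included 4 higher genes of 14: Cd40, Cd274, Slamf8 and Cd38 (median 0.39). Cd274, which encodes PD-L1, stood at 185 against 74.2 CPM, and Cd38, an ectoenzyme that consumes NAD, at 196 against 57.2 CPM.

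The Arg1 and lipid-associated list had 5 of 17 genes higher and 0 lower although Arg1 itself was removed by the rule: Gpnmb, Spp1, Fabp5, Cd63 and Saa3 (median 0.42). Fabp5, a fatty acid carrier, stood at 618 against 195 CPM. Its difference of 1.62 dropped to 0.51 when members also had to hold Cxcl9 or Nos2, and 5 members held 46.8% of the members' Gpnmb UMIs.

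Lower genes included those of resident macrophages, patrolling monocytes and dividing cells, as well as markers of red cells and neutrophils. The 10 lowest genes at 50 CPM or more were Retnla, S100a9, Hpgd, Hba-a1, Cd209a, Hba-a2, Top2a, Stmn1, S100a8 and Pf4. All 4 measured erythroid genes (median -1.79) and 3 of 6 neutrophil genes (median -1.47) were at least 2-fold lower. Of 19 resident macrophage genes 12 were at least 2-fold lower and 0 higher, with a median of -1.18. Mrc1, the mannose receptor, stood at 26.9 CPM (23.2 to 31.1) against 123 CPM (114 to 132), and Pf4, platelet factor 4, at 11.8 against 77.5 CPM. Both differences were larger in Xist cells (-2.68 and -2.79 on log2(CPM + 10)) than in Y cells, where they stayed within 2-fold (-0.92 and -0.90), and 5 of the other cells held 60.7% of their Pf4 UMIs. Retnla, a resistin-like protein of alternatively activated macrophages, stood at 0.294 against 113 CPM, but 5 of the other cells held 99.0% of their Retnla UMIs. Of 10 genes of Ly6C-low patrolling monocytes 6 were lower (median -1.04), and of 13 cell cycle genes 5 were lower (median -0.75). Of the other cells' UMIs 66.4% for Top2a and 61.6% for Stmn1 lay in 5 cells. With each cell thinned to 3000 UMIs and a sum of at least 2, Top2a and Stmn1 differed by -0.54 and -0.45, within 2-fold. A UMI of Mki67 was found in 109 members and 51 other cells. Cd209a, a lectin of monocyte-derived dendritic cells, stood at 17.1 against 113 CPM.

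Levels changed along the sum that the rule used, on both sides of its threshold. In 7-day Csf1r cells without Arg1 the sum was grouped as 0, 1 to 2, 3 to 4, 5 to 6, 7 to 9, 10 to 19, 20 to 49 and 50 or more UMIs, with 399, 144, 54, 38, 47, 102, 153 and 235 cells. Ly6i stood at 270 CPM at a sum of 0, 646 CPM at 3 to 4, 973 CPM at 5 to 6 and 1258 CPM at 50 or more. Cells just outside the rule thus already stood above cells with a sum of 0. Saa3 stood at 224, 628, 513 and 3256 CPM in the same groups of cells, and Procr at 5.24, 19.3, 33 and 155 CPM. Fth1 stood at 6122 CPM at a sum of 0, 8861 CPM at 5 to 6 and 22343 CPM at 50 or more. Ccr2 went the other way, from 1223 CPM at a sum of 0 to 483 CPM at 50 or more, and Mrc1 from 135 to 22.2 CPM, with 88.6 CPM at 3 to 4 and 28 CPM at 5 to 6. Ptgs2 stood at 171 CPM at a sum of 0, 343 CPM at 3 to 4, 289 CPM at 20 to 49 and 604 CPM at 50 or more. Ly6c2 stayed between 972 and 1464 CPM in all groups. The sum of a cell depends on its depth, and these levels are per UMI of all genes.

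**Figure D3:**
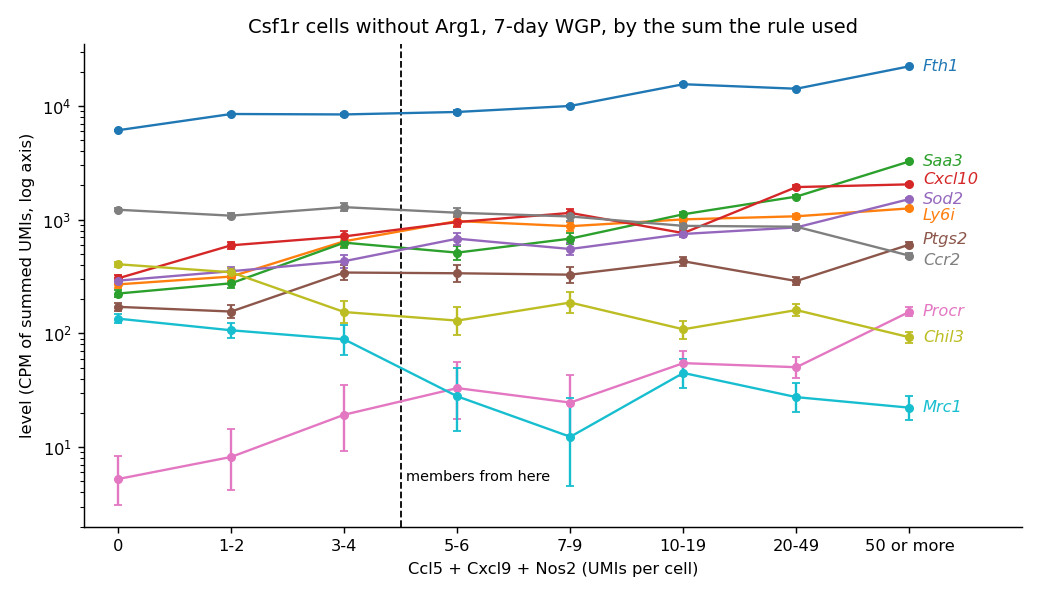
Level (CPM of summed UMIs, log axis) of 10 genes in 7-day Csf1r cells without Arg1, grouped by the UMIs of Ccl5, Cxcl9 and Nos2 that a cell held; lines are exact Poisson 95% intervals and cells right of the dashed line are members. Ly6i went from 270 to 1258 CPM and Ccr2 from 1223 to 483 CPM between the lowest and the highest sum.

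The members of 7-day WGP were not alike among themselves. They were divided by the genes of the sum that they held: Cxcl9 only (89 cells), Ccl5 only (87 cells), Ccl5 and Cxcl9 without Nos2 (309 cells) and any Nos2 (90 cells), with median depths of 10523, 11070, 11544 and 13176 UMIs. Several genes were highest in cells with Cxcl9 only. Cxcl10 stood at 5063 CPM (4923 to 5206) in them, 243 CPM (213 to 276) with Ccl5 only, 1348 CPM (1310 to 1386) with both and 1113 CPM (1055 to 1174) with Nos2. Gbp5 stood at 344, 49.4, 191 and 234 CPM in the same order and Isg15 at 589, 90.8, 315 and 244 CPM. Ly6c2 stood at 1727, 808, 1148 and 937 CPM, and Chil3 at 411, 86.8, 84.2 and 27.9 CPM. The intervals of cells with Cxcl9 only lay above those of the other members for these 5 genes. Fn1, of the same monocyte list as Chil3, was not highest there, at 419, 506, 287 and 295 CPM. S100a9 of neutrophils stood at 460, 6.05, 69.5 and 2.46 CPM and S100a8 at 310, 32.3, 88.6 and 47.6 CPM, and their part in the other values was not tested.

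Other genes were highest in cells with Nos2. Saa3 stood at 5831 CPM (5696 to 5968) in them, 361 CPM (324 to 400) with Cxcl9 only, 2326 CPM (2232 to 2422) with Ccl5 only and 1319 CPM (1282 to 1357) with both. Fth1 stood at 34390 CPM with Nos2, 7996 CPM with Cxcl9 only, 17193 CPM with Ccl5 only and 14407 CPM with both. Procr stood at 280, 27.6, 19.2 and 72.3 CPM in that order, Clec4e at 1715, 550, 414 and 711 CPM and Ptgs2 at 791, 337, 301 and 425 CPM. Ccr2 was lowest with Nos2, at 282 CPM against 947, 811 and 795 CPM. Marco, a scavenger receptor, stood at 215 CPM with Nos2 and had no UMI in cells with Cxcl9 only (a gene chosen after its values were seen). Cells with Ccl5 only held the most Gpnmb, a glycoprotein of lipid-associated macrophages (275 CPM, against 9.19 CPM with Cxcl9 only, 44 CPM with both and 152 CPM with Nos2). Fabp5 stood at 1241 CPM with Ccl5 only and 1115 CPM with Nos2, against 176 CPM with Cxcl9 only and 399 CPM with both. These cells were divided by measured values of 1 library, and their genes are a description.

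**Figure D4:**
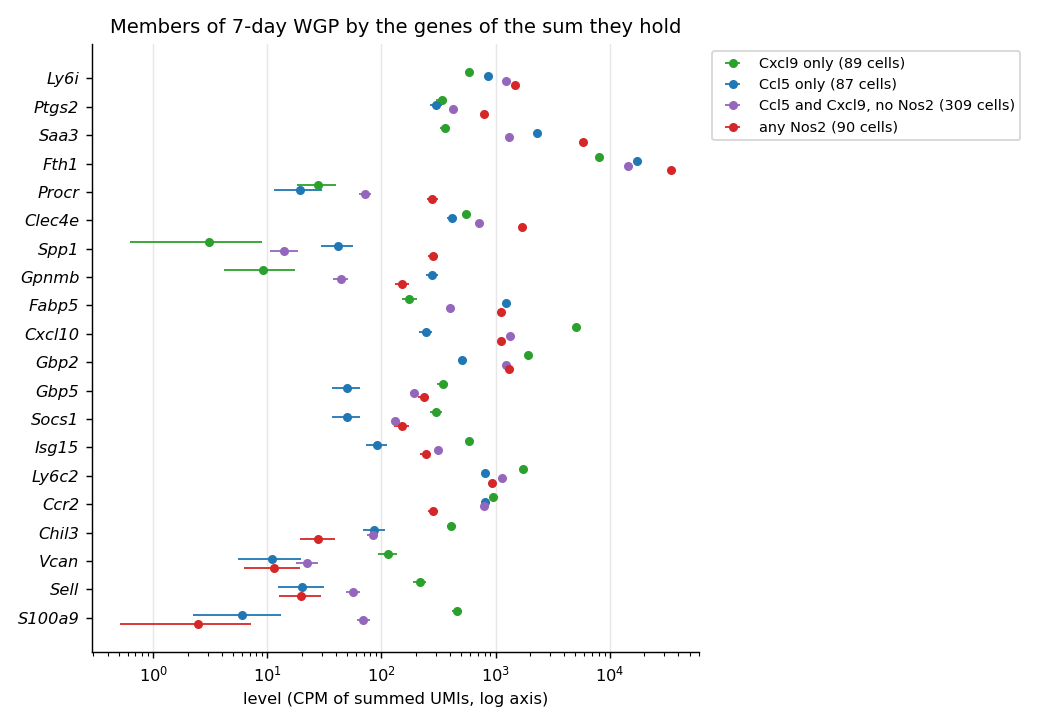
Levels (CPM of summed UMIs, log axis) of 20 genes in the 7-day members divided by the rule genes they held; lines are exact Poisson 95% intervals. Cxcl10 was highest with Cxcl9 only (5063 CPM), and Saa3 (5831 CPM) and Procr (280 CPM) were highest with Nos2.

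Within Xist and within Y cells most of the leading genes at 7 days had the same direction. Those genes were chosen over all cells of this library, which include both kinds. A shared direction thus partly follows from the choice and is a description. On log2(CPM + 10) Ly6i differed between members and other Csf1r cells by 1.85 in 178 and 263 Xist cells and by 1.72 in 272 and 197 Y cells, and Ptgs2 by 1.08 and 1.62. Procr differed by 1.85 and 2.96, Cxcl10 by 1.79 and 1.54, and Sdc4, a heparan sulfate proteoglycan, by 2.03 and 2.02. Mrc1 differed by -2.68 and -0.92. Some genes were of unequal size in the Xist and Y cells. Saa3 differed by 1.65 and 3.38, Lyz1 by 0.52 and 3.04, Fabp5 by 1.14 and 2.87 and Spp1 by 0.30 and 0.90, so that Lyz1 in Xist cells and Spp1 in both stayed within 2-fold. Hba-a1 differed by -6.63 in Xist and 0.57 in Y cells. Xist and Y cells are from different mice of 1 library, and they are not replicates of the treatment.

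**Figure D5:**
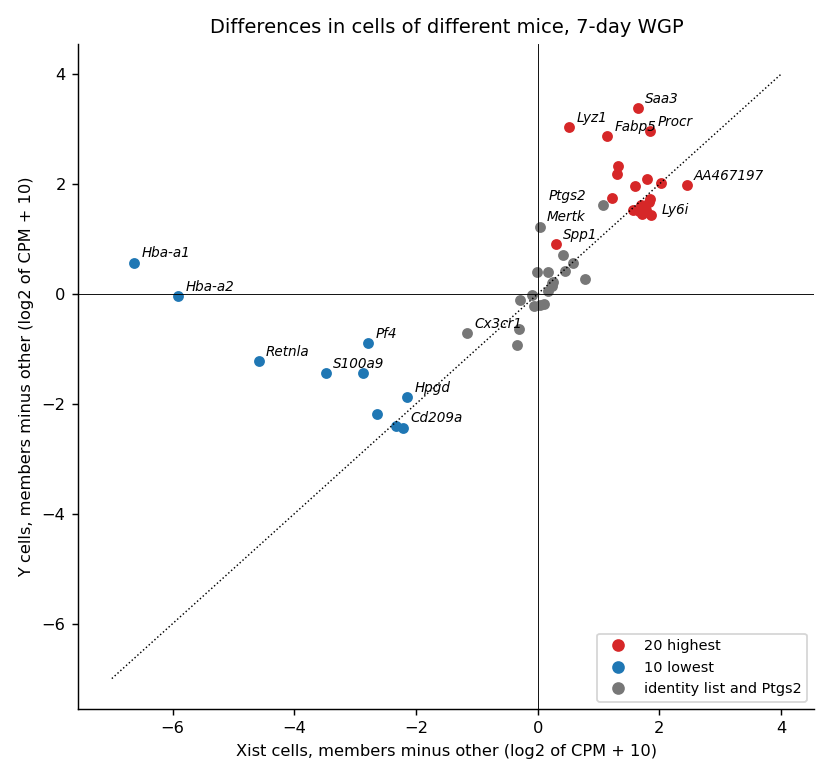
Difference of each gene between members and other Csf1r cells of 7-day WGP on log2(CPM + 10), in Xist cells (x axis) and Y cells (y axis), for the 20 highest genes (red), the 10 lowest (blue), and the identity genes with Ptgs2 (grey); the dotted line marks equal differences. All the red points lay above 0 on both axes, Ly6i at 1.85 and 1.72, while Hba-a1 lay at -6.63 and 0.57. The red and blue genes were chosen over all cells of the library, so their side partly follows from the choice.

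Members of 7-day WGP were set against those of 3-day WGP, of which there were 36. Of 7855 genes 160 (2.04%) were at least 2-fold higher and 298 (3.79%) at least 2-fold lower at 7 days, and with TMM factors the split was 236 higher and 189 lower. The median of all genes went from -0.11 to 0.09 with these factors. All 4 measured erythroid genes were higher at 7 days (median 3.88), with Hbb-bs the highest named gene (a difference of 4.602), and without barcodes of 3 or more erythroid, neutrophil or fibroblast UMIs its difference was -0.0195. In Y cells alone, where 237 genes were higher and 384 lower in 272 members than in 23, it was 0.52. Interferon-γ genes were higher as well. Of 17 interferon-γ induced GTPases 14 were higher and 0 lower, with a median of 1.24, and Iigp1 stood at 35 CPM (21.4 to 54) at 3 days and 321 CPM (308 to 335) at 7 days. Its level in PBS members, 130 CPM (86 to 190), lay between. Socs1 stood at 3.5 CPM at 3 days, from 2 UMIs, and at 148 CPM at 7 days. Of 5 measured genes of the Ly6 family 4 were higher, Ly6a, Ly6c2, Ly6i and Ly6d (median 2.56). Ly6a, Ly6c2 and Ly6i are close in sequence.

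Resident and lipid-associated genes were lower at 7 days. Of 16 resident macrophage genes 14 were lower (median -1.55) and of 18 genes of the Arg1 and lipid list 13 were lower and 1 higher (median -1.57). Folr2, a folate receptor of resident macrophages, stood at 114 CPM in 3-day and 2.5 CPM in 7-day members, and Fn1, fibronectin, at 2155 and 340 CPM. Of 16 chemokines 2 were higher, Cxcl10 and Ccl22, and 7 lower (median -0.83). Among markers of other cells, endothelial Cdh5, Kdr and Plvap, NK Klrd1 and neutrophil S100a8, S100a9 and Retnlg were at least 2-fold lower at 7 days. Fibroblast Col3a1 and Dcn were higher. The part of such cells among the 36 members in the other differences was not tested. Retnla stood at 2503 CPM in PBS members, 5.25 CPM in 3-day and 0.294 CPM in 7-day members. The PBS value comes from 17 cells, of which 16 held only Xist, and its spread over them is not given here. Of the 3-day members 23 held only Y-linked UMIs and 4 only Xist. In Y cells alone Iigp1 differed between 7 and 3 days by 3.08, Socs1 by 4.08, Folr2 by -3.25 and Fn1 by -2.56 on log2(CPM + 10). The make-up of the members also differed, since Ccl5 alone was found in 18 of 36 members at 3 days and in 87 of 575 at 7 days. Among 7-day members, cells with Ccl5 only held less Gbp5 (49.4 against 344 CPM) and more Gpnmb (275 against 9.19 CPM) than cells with Cxcl9 only. The part of this in the differences was not tested, and time and library cannot be told apart.

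Arg1 cells of the same library were set beside the members to show where the members differ from them. These were 208 cells with at least 3 UMIs of Arg1 and the same exclusions. Many of them also held the genes of the sum: 133 of 208 (63.9%, 57.0 to 70.5) had a sum of at least 5, as had 47 of 238 (19.7%, 14.9 to 25.4) at 3 days. Ccl5 stood at 2711 CPM in members and 2100 CPM in Arg1 cells, Cxcl9 at 2463 and 647 CPM, and Nos2 at 67.2 and 166 CPM, so Nos2 was the lower in members.

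Of 7637 genes 156 (2.04%) were at least 2-fold higher in members than in Arg1 cells and 274 (3.59%) at least 2-fold lower. Monocyte, Ly6 and class II genes led the higher ones: 6 of 14 Ly6C-high monocyte genes (median 0.76), 4 of 5 Ly6 genes (median 1.24) and 5 of 12 genes of MHC class II presentation (median 0.95). Ly6c2 stood at 1144 against 194 CPM, Ccr2 at 728 against 174 CPM and Ly6i at 1125 against 348 CPM. NF-κB genes were also higher in 5 of 20, with Cd40 at 156 against 60.7 CPM. Lower were 14 of 18 genes of the Arg1 and lipid list (median -1.62) and 13 of 17 resident macrophage genes (median -1.47). Saa3 stood at 2137 against 16721 CPM and Fabp5 at 618 against 2068 CPM. Of 17 interferon-γ induced GTPases 1, Gbp8, was higher and 0 lower, and Gbp2 stood at 1246 against 1160 CPM. Slc7a2, Ptges, Il1a, Vegfa and Clec4d, higher in members than in other Csf1r cells, were at least 2-fold lower than in Arg1 cells. Socs1, Ifi205, Cxcl10, Ptgs2, Cd40, Bcl2a1d, Slamf8, Clec4n and Clec5a were at least 2-fold higher in members than in both. The genes highest against other Csf1r cells were partly shared with the 133 Arg1 cells that had a sum of at least 5. Those cells stood above members for Saa3 (18016 CPM), Lyz1 (2365 against 616 CPM) and Spp1 (136 against 64.7 CPM). They also did for Cfb (340 against 263 CPM) and AA467197 (283 against 216 CPM), and for Fth1 (30896 against 17472 CPM). Acsl1 (215 against 207 CPM) and Sdc4 (326 against 349 CPM) were close. Members stood higher for Cxcl10 (1680 against 618 CPM), Serpina3g (236 against 144 CPM) and Procr (95.3 against 72.8 CPM).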

How the data were processed

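Single live CD45+ cells of 3 libraries (PBS, 3 days and 7 days after WGP) were measured with droplet-based 3' sequencing. The deposited matrices hold UMI counts per gene and barcode, which the authors made with Cell Ranger 3.1.0 and genome mm10 according to the submitters' processing notes, with no normalization. No column was left without a sample (0 unused). Each group was 1 library and nothing shows separate replicates, so no test was made. Barcodes with at least 1000 UMIs and at most 30% mitochondrial UMIs were kept. Doublets were not removed in the reported values: Scrublet marked 0 to 1 cells per library and so did not work, and its highest scores were removed as an alternative.

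UMIs were summed over cells and given as CPM. Genes at 10 CPM or more were compared on log2(CPM + 10), which understates changes of low genes, with the 12 genes of the rule left out. A gene was counted from a 2-fold difference. Intervals are exact 95% Poisson or binomial intervals, and a count of 0 was given a limit of 3 counts. Cells were thinned to 3000 UMIs for shares of cells. Named genes were those of the rule, Ly6i, Ptgs2, the identity genes, up to 4 genes of each list, the 20 highest and 10 lowest at 7 days (all at 50 CPM or more), and the 10 highest and lowest between 7 and 3 days. Genes given beside these, and the splitting of the sum at 50 UMIs, were chosen after the data were seen. Members and gene lists were chosen with earlier results of these data known. Of 510 list genes 5 were not matched. Alternatives covered cell filters, the threshold of the sum, depth, doublets, the pseudocount, the filter on low values, TMM factors, equal weights and Xist or Y cells. Scripts were tested on simulated data and used Python 3.11.15, numpy 2.4.6, scipy 1.17.1, pandas 2.3.3, scanpy 1.11.5 and matplotlib 3.10.9.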

Additional observations from a re-analysis of the deposited data

Results flagged for a closer look

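The difference between members and other Csf1r cells went in opposite directions for Lyz1, a lysozyme, at the 2 times after WGP: it was 2.04 on log2(CPM + 10) at 7 days and -1.87 at 3 days. For Dcn, a matrix proteoglycan of fibroblasts, it was 1.07 in Xist cells and -3.09 in Y cells of the 7-day library, where 5 cells held 97.8% of the members' Dcn UMIs. Neither difference between groups was tested.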

How the results depend on the processing

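Of 137 counts and shares under an alternative 120 stayed close to the reported value and 17 moved. The share of members at 7 days was 15.1% with a sum of at least 3, 11.7% with a sum of at least 10, 11.7% where Cxcl9 or Nos2 was also required and 12.4% without barcodes of 3 or more erythroid, neutrophil or fibroblast UMIs (chosen after seeing the data). At 3 days it was 0.369% where Cxcl9 or Nos2 was required. With a pseudocount of 1 CPM 158 genes were higher and 270 lower than in other Csf1r cells, 348 and 798 between 7 and 3 days, and 289 and 544 against Arg1 cells. With 50 CPM or more required, 57 genes were lower than in other Csf1r cells, 91 higher and 169 lower between 7 and 3 days, and 102 higher and 163 lower against Arg1 cells. With TMM factors 189 genes were lower at 7 than at 3 days. Of 31 genes 20 stayed past 2-fold against other Csf1r cells in all 15 alternatives, and of 20 genes 15 did so between 7 and 3 days in all 13. Hba-a1 turned to 0.57 in Y cells, 0.43 in thinned cells and 0.16 without the barcodes above. Hba-a2 turned to 0.62 in thinned cells and 0.24 without those barcodes, S100a8 to 0.60 and, between 7 and 3 days, Hbb-bs to -0.0195 without them. The cause was not tested. The 7-day and 3-day members were not compared in Xist cells (4 members at 3 days) or with Cxcl9 or Nos2 required (18 members), since fewer than 20 were left. No paired analysis was possible because each group was 1 library. The 17 PBS and 36 3-day members limit what their levels show.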
